A study of Solanum lycopersicum with 8 samples.

Results

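The change with leaf number within the tomato mutant late termination (ltm) was followed here, in RNA of dissected shoot apical meristems. Meristems of ltm seedlings with 6 leaves were set against meristems of ltm seedlings with 4 leaves, with 2 libraries per stage, called A and B. A gene was taken up when its value was at least 10 in 2 or more of the 4 ltm libraries, which 18654 of the 34722 genes of the table met. The series also holds wild-type (WT) meristems with 6 leaves and with 4 leaves, again 2 libraries each, which are used here only beside the mutant. All seedlings were raised in a greenhouse for 2 to 12 days and were fixed with acetone before dissection. The mutation is common to all 4 ltm libraries, and its locus is not given in the labels, so the mutated gene was not checked. The labels do not say whether A and B were separate pools of plants. The p-values therefore rest on differences between A and B that may be technical only.

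The shoot apical meristem is the dome of dividing cells at the tip of the shoot. It forms leaves on its flanks until the floral transition, when the tomato meristem ends in a first inflorescence and growth goes on from the side bud below. Florigen, a mobile protein made in leaves from the gene SFT, drives this change, and its relative SELF PRUNING (SP) opposes it. In the meristem itself MADS-box genes of the FRUITFULL, JOINTLESS and SOC1 groups are known to take part in the change. FALSIFLORA (FA) and ANANTHA (AN), the counterparts of LEAFY and UFO of Arabidopsis, give flowers their identity.

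The 4 ltm libraries held between 19892629 and 21135063 reads assigned to genes, and all 8 held between 17895357 and 21987881. In both genotypes, library B of the 4 leaves stage was unlike the other libraries. On the first principal component of the 18654 genes, with 35.2% of the variance, ltm 4 leaves B lay at 40.8 and WT 4 leaves B at 41.4, while the other 6 lay between -34.4 and 2.99. On the second component, WT 6 leaves B lay at -45.8 and the other libraries between -11.3 and 21.1, which touches the WT values given beside the mutant. Replicates were closer at 6 than at 4 leaves in the mutant. The median absolute difference between A and B was 0.149 on the log2 scale in ltm 6 leaves and 0.266 in ltm 4 leaves, and 579 and 1344 genes differed at least 2-fold. All 9 matched members of the meristem marker list were measured in the ltm libraries, among them WUS and CLV3. Of the 10 matched flower organ genes, 2 passed the filter, TM6 and MBP3, while TAGL1, TPI and AGL11 had no ltm read. TM6 had 605.7 and 821.8 normalized reads in ltm 6 leaves, against 737.1 and 503.6 in ltm 4 leaves, with overlap.

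Between 6 and 4 leaves the mutant showed few differences that held in both libraries. Values are normalized read counts, and a stage change is the difference of mean log2(value + 1), 6 minus 4 leaves, with its standard error (SE) from limma. At an adjusted p of 0.05, limma called 0 of 18654 genes (0%), with a smallest adjusted p of 0.9997, and edgeR called 0 as well. DESeq2 on the recovered reads called 4 genes (0.0214%). Without adjustment, limma placed 240 genes (1.29%) below 0.05 with higher values at 6 leaves and 359 (1.92%) with lower values. The edgeR and DESeq2 fits placed 625 and 476 genes below that line in either direction. In WT the same limma fit called 0 genes (0%) and DESeq2 9 (0.0482%). An exact permutation test of 2 against 2 libraries cannot give a two-sided p under 0.333.

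Both 6 leaves values lay above both 4 leaves values in 2457 genes (13.2%) and below them in 2629 (14.1%). Such genes are here called apart. Were the 4 libraries exchangeable, a gene would be apart in either direction with a probability of 0.333. Being apart is therefore no evidence of a stage effect by itself. The median stage change over all genes was 0.00, and 50.4% of genes had a higher mean at 6 leaves. A stage change of at least 2-fold with no overlap, here called separated, was seen in 71 genes that were higher (0.381%) and 115 that were lower (0.616%) at 6 leaves. Most separated genes were at low levels: 58 of the 71 and 102 of the 115 had an ltm mean under 100, against 22.2% of all genes tested. Of the 71, 20 entered only because both 6 leaves values reached 10, and of the 115, 46 entered only through both 4 leaves values. Those genes had to differ. Over all genes, 35 passed only through 6 leaves and 80 only through 4 leaves. When every ratio of a 6 leaves to a 4 leaves library had to reach 2-fold, a rule chosen after the data were seen, 6 genes were higher and 21 lower.

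Much of the 2-fold difference depended on which 4 leaves library was used. Against ltm 4 leaves B alone, 226 genes were at least 2-fold higher and 604 at least 2-fold lower at 6 leaves. Against ltm 4 leaves A alone, 356 were higher and 171 lower. Against both, each taken alone, 17 were higher and 60 lower. Without ltm 4 leaves B the count of separated genes was 346 higher and 156 lower, and without ltm 4 leaves A it was 220 higher and 588 lower. Leaving out a library makes the no-overlap rule easier to meet, so these counts cannot be compared with those over all ltm libraries. Across the 18654 genes, the stage change of the ltm A libraries and that of the ltm B libraries had r = -0.18 (Spearman's rho = -0.19), and with the letters crossed r = -0.28 (rho = -0.14). The genes are not independent replicates.

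**Figure D1:**
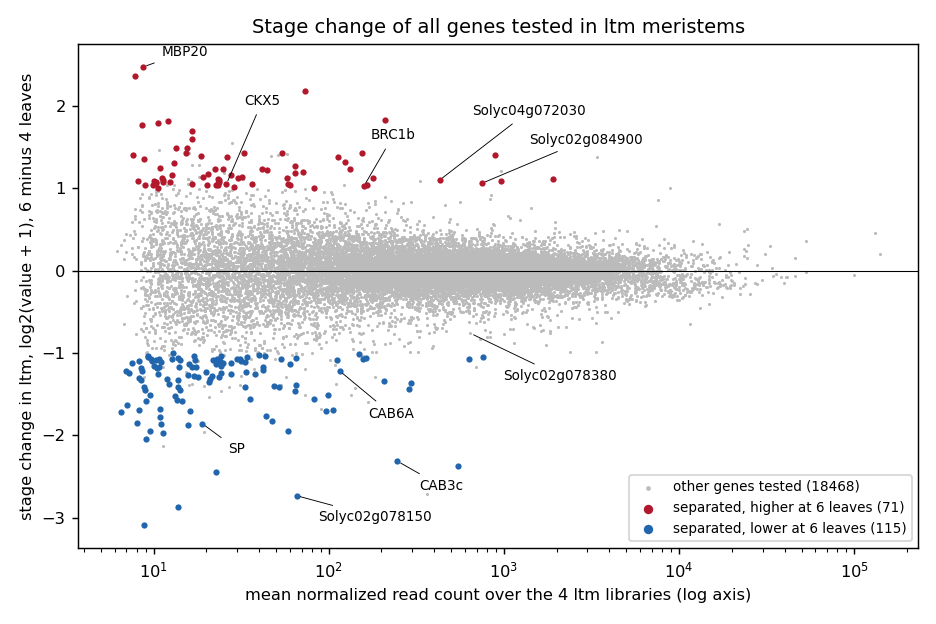
Stage change in ltm meristems (6 minus 4 leaves, log2(value + 1), y axis) against the mean normalized read count over the 4 ltm libraries (log x axis), 1 point per gene tested. The 71 separated genes higher at 6 leaves (red) and the 115 lower (blue) lie mainly among genes with a mean under 100.

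The 4 genes that DESeq2 called have no name in the sources used here and are given by identifier. Solyc02g084900 had 1145 and 885.7 normalized reads in ltm 6 leaves, against 544.2 and 427.0 in ltm 4 leaves. Its stage change was 1.06 ± 0.18 (SE), with a DESeq2 adjusted p of 0.0061 and an edgeR adjusted p of 0.9999. Solyc04g072030 had 724.0 and 455.9 in ltm 6 leaves, against 242.6 and 295.1 in ltm 4 leaves, a stage change of 1.10 ± 0.22 with a DESeq2 adjusted p of 0.033. Both genes were higher in each 6 leaves library than in either 4 leaves library.

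The other two were lower in both 6 leaves libraries. Solyc02g078380 had 457.1 and 497.9 in ltm 6 leaves, against 790.9 and 825.8 in ltm 4 leaves, a stage change of -0.76 ± 0.12. Solyc02g078150 had 19.9 and 12.0 in ltm 6 leaves, against 155.3 and 75.5 in ltm 4 leaves, a stage change of -2.73 ± 0.62. Each had a DESeq2 adjusted p of 0.033. All 4 moved the same way in WT, with stage changes there of 0.70, 0.84, -0.34 and -2.21 in the order given. In WT, too, both 6 leaves values of each of the 4 lay on the same side of both 4 leaves values.

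Among separated genes with an ltm mean of at least 50, the largest stage changes without a name belonged to Solyc03g116970 and Solyc00g011150 upwards and Solyc02g078150 and Solyc09g011160 downwards. Solyc03g116970 had 112.6 and 114.0 in ltm 6 leaves, against 10.2 and 56.4 in ltm 4 leaves, a stage change of 2.18 ± 0.72 that was 3.36 without ltm 4 leaves B and 0.99 without ltm 4 leaves A. Solyc00g011150 had 129.7 and 548.8 in ltm 6 leaves, against 54.8 and 100.7 in ltm 4 leaves, a stage change of 1.83 that was 0.79 without ltm 6 leaves B. Solyc09g011160 had 76.7 and 169.9 in ltm 6 leaves, against 203.0 and 1739 in ltm 4 leaves. The high value of the last gene in ltm 4 leaves B had a counterpart of 2115 in WT 4 leaves B, against 125.2 in WT 4 leaves A. Its stage change of -2.37 was -0.82 without ltm 4 leaves B and -3.92 without ltm 4 leaves A.

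Among the floral transition genes J was higher in both ltm 6 leaves libraries, SP was lower in both, and FA, FUL1, FYFL and S overlapped between the stages. Of the 24 identifiers of this list 19 could be tied to a RefSeq name, and 11 of the 19 passed the filter. None of the 11 passed adjustment. Their median stage change was 0.28, against 0.00 over all genes, and 9 of 11 had a positive value, against 50.4% of all genes. The values of 4 of the 11 lay apart upwards, against 13.2% of all genes, and of 1 downwards, against 14.1%. These counts include MBP20, which entered only through its 6 leaves values and had to be higher, so they describe the members and no more. The median was 0.23 without ltm 4 leaves B, with 7 of 11 positive, and 0.26 without ltm 4 leaves A. Leaving out ltm 6 leaves B gave 0.17.

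The FRUITFULL group holds FUL1 (Solyc06g069430), FUL2 (Solyc03g114830), MBP20 (Solyc02g089210) and MBP10 (Solyc02g065730), relatives of a gene that promotes flowering and fruit development in Arabidopsis. MBP20 had 19.9 and 11.0 normalized reads in ltm 6 leaves, against 3.05 and 1.01 in ltm 4 leaves. Both 6 leaves values were over 3 times the higher 4 leaves value, and the gene entered only through its 6 leaves values. Its stage change of 2.47 ± 0.56 is therefore a description, resting on 32 reads in ltm 6 leaves and 4 in ltm 4 leaves. In WT the gene had 71.7 and 108.7 at 6 leaves, against 6.40 and 11.5 at 4 leaves, so that the mutant with 6 leaves was closer to WT with 4 leaves than to WT with 6 leaves.

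FUL2 had 124.0 and 166.0 in ltm 6 leaves, against 119.8 and 82.6 in ltm 4 leaves. The stages did not overlap, although ltm 4 leaves A was close to ltm 6 leaves A, and the stage change of 0.52 ± 0.34 had an unadjusted p of 0.16 and was 0.26 without ltm 4 leaves B and 0.79 without ltm 4 leaves A. FUL1 had 68.1 and 37.0 in ltm 6 leaves, against 37.6 and 43.3 in ltm 4 leaves, with overlap (0.31 ± 0.34, or -0.12 without ltm 6 leaves A). In WT both genes were apart, with 134.4 and 141.6 at 6 leaves against 35.6 and 51.2 at 4 leaves for FUL1, and 198.2 and 387.3 against 104.2 and 122.2 for FUL2. The stage change of FUL1 was 1.36 ± 0.48 smaller in ltm than in WT, with an unadjusted p of 0.022 that did not pass adjustment. MBP10 had 1 read in ltm 6 leaves and 2 in ltm 4 leaves, under the filter.

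JOINTLESS (J, Solyc11g010570), the MADS-box gene of the fruit stalk's abscission zone that also keeps the inflorescence from returning to leaves, had 3325 and 3460 in ltm 6 leaves, against 2563 and 2662 in ltm 4 leaves. The stages were apart with little spread within either, and the stage change was 0.38 ± 0.15 with an unadjusted p of 0.039. It was 0.40 without ltm 4 leaves B and 0.35 without ltm 4 leaves A. In WT the stages of J overlapped, with 3497 and 4227 at 6 leaves against 3799 and 2873 at 4 leaves, a stage change of 0.22 ± 0.15. The difference between the stage changes, 0.16 ± 0.22, had an unadjusted p of 0.48.

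FYFL (Solyc03g006830), of the SOC1 group of MADS-box genes, had 48.3 and 42.0 in ltm 6 leaves, against 47.7 and 38.3 in ltm 4 leaves. The stages overlapped in the mutant, with a stage change of 0.07 ± 0.42. In WT they were apart, with 97.6 and 130.2 at 6 leaves against 65.8 and 26.1 at 4 leaves. The difference between the 2 stage changes was -1.35 ± 0.59 and had an unadjusted p of 0.053.

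SP (Solyc06g074350), the antiflorigen of the florigen family, was lower at 6 leaves. It had 10.4 and 5.0 normalized reads in ltm 6 leaves, against 21.3 and 39.3 in ltm 4 leaves, from 16 and 60 reads. The stages did not overlap, and the stage change was -1.86 ± 1.05 with an unadjusted p of 0.11. In WT the gene had 7.97 and 0 at 6 leaves, against 0.914 and 0 at 4 leaves, so that both ltm 4 leaves values lay above all 4 WT values, and ltm 6 leaves B lay below WT 6 leaves A. The difference between the stage changes, -2.97 ± 1.48, had an unadjusted p of 0.080.

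No read of SFT, SP5G, SP6A or SP9D, the other members of the florigen family on the list, was counted in any ltm library. A count of 0 among the 81538387 ltm reads allows up to 3 reads. In WT, SFT had reads only in 6 leaves B, at a value of 10.2.

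FA (Solyc03g118160), the tomato LEAFY gene, had 3568 and 4186 in ltm 6 leaves, against 4645 and 3229 in ltm 4 leaves. The 6 leaves values lay between the 4 leaves values, and the stage change was 0.00 ± 0.17. COMPOUND INFLORESCENCE (S, Solyc02g077390), a homeobox gene that promotes flower formation in the inflorescence, had 31.2 and 51.0 in ltm 6 leaves, against 42.6 and 25.2 in ltm 4 leaves, again with overlap (0.28 ± 0.53). AN, the F-box partner of FA, was under the filter, with 9 reads in ltm 6 leaves and 15 in ltm 4 leaves, a ratio of 0.577 (95% exact interval 0.223 to 1.41, counting error only).

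The SEPALLATA-like genes EJ2 and J2, which act in inflorescence and flower, were also under the filter. EJ2 had 1 read in ltm 6 leaves and 4 in ltm 4 leaves, a ratio of 0.240 (0.00488 to 2.43). J2 had 1 read in ltm 6 leaves and none in ltm 4 leaves. The identifier Solyc05g056620 had 1 read over all 4 ltm libraries, in ltm 6 leaves A, whereas WT held 124.5 and 146.1 normalized reads at 6 leaves against 0 and 1.04 at 4 leaves.

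The 3 BLADE-ON-PETIOLE genes encode coactivators at leaf and flower bases. BOP1 (Solyc04g040220) had 356.8 and 440.9 in ltm 6 leaves, against 337.1 and 276.0 in ltm 4 leaves, apart but with a stage change of 0.38 ± 0.17 and an unadjusted p of 0.052, or 0.23 without either ltm B library. BOP2 and BOP3 overlapped between stages, with stage changes of 0.12 ± 0.16 and 0.09 ± 0.13. Of the list's identifiers without a matched name, Solyc11g069030 had 572.5 and 592.8 in ltm 6 leaves, against 454.8 and 413.9 in ltm 4 leaves (0.42 ± 0.13, unadjusted p of 0.013). Solyc01g092950 had 1682 and 1741 in ltm 6 leaves, against 1247 and 1358 in ltm 4 leaves (0.40 ± 0.15, unadjusted p of 0.033). Both were apart in the mutant and, in the same direction, in WT. Solyc09g090180 overlapped between the stages (0.19 ± 0.14), and Solyc04g005320 had no read in ltm 6 leaves and 2 in ltm 4 leaves.

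**Figure D2:**
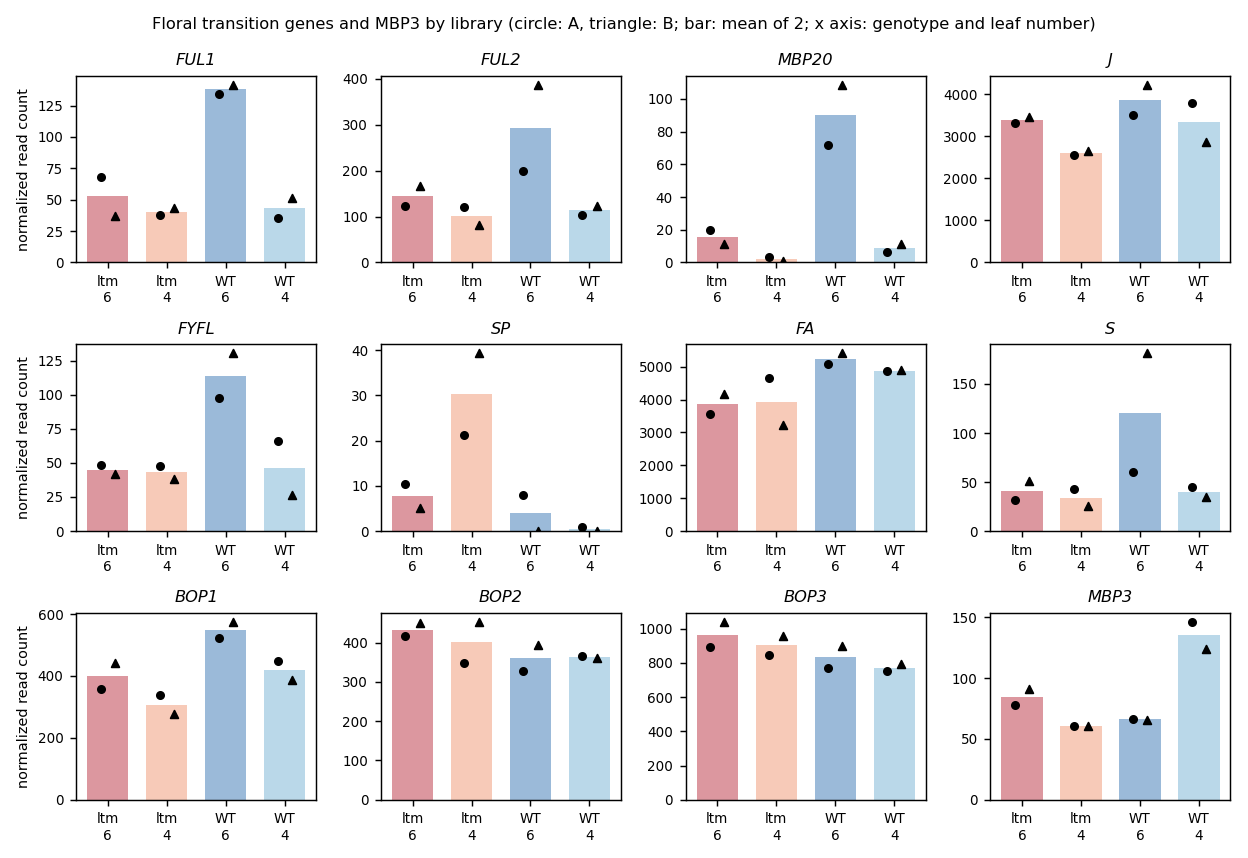
Normalized read counts of 11 floral transition genes and MBP3 in each library (circle A, triangle B), with bars at the mean of 2, for ltm 6 leaves, ltm 4 leaves, WT 6 leaves and WT 4 leaves from left to right. MBP20 stands near 20 and 11 in ltm 6 leaves and under 4 in ltm 4 leaves, and FUL1, FUL2, MBP20, FYFL and S reach their highest values in WT 6 leaves.

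Genes of the meristem list had stage changes between -0.27 and 0.53 in ltm, and of the organ boundary list only BRC1b was separated. In the meristem list 7 of 9 had a positive stage change, against 50.4% of all genes, with a median of 0.20. Apart upwards were 3, against 13.2% of all genes, and apart downwards 0, against 14.1%. One gene, CLV2, was below an unadjusted p of 0.05, against 1.29% of all genes with higher values. Without ltm 4 leaves B the median was 0.03 with 5 of 9 positive, and without ltm 4 leaves A it was 0.40 with 8 of 9 positive. The summed level of the 9 genes was 15838 and 16916 in ltm 6 leaves, against 16219 and 12362 in ltm 4 leaves, where only the B library was low.

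CLV2 (Solyc04g056640), a receptor-like protein that limits stem cell number, had 738.2 and 671.8 in ltm 6 leaves, against 598.0 and 564.0 in ltm 4 leaves. The stages were apart, and the stage change was 0.28 ± 0.12 with an unadjusted p of 0.048. It was 0.24 without ltm 4 leaves B. TKN2, the KNOX gene that keeps cells undifferentiated, had 6254 and 6825 in ltm 6 leaves, against 6148 and 4544 in ltm 4 leaves, and its relative TKN4 1201 and 1333 against 1139 and 896.3. In both genes the 4 leaves A library was close to the 6 leaves libraries and the B library was low. WUS, which specifies the stem cell centre, had 166.6 and 212.9 in ltm 6 leaves, against 245.7 and 209.5 in ltm 4 leaves, with overlap. CLV3, which encodes the stem cells' signal peptide, had 126.8 and 180.9 in ltm 6 leaves, against 126.9 and 85.6 in ltm 4 leaves.

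All 4 matched members of the organ boundary list, which also holds genes of side buds, had positive stage changes, with a median of 0.30. Of the 4, 3 were apart upwards, against 13.2% of all genes. BRC1b (Solyc06g069240), a TCP gene that holds back bud outgrowth, was the only separated member, against 0.381% of all genes separated upwards. It had 165.6 and 259.9 in ltm 6 leaves, against 79.2 and 129.9 in ltm 4 leaves. Each 6 leaves value exceeded both 4 leaves values, and the stage change was 1.02 ± 0.34 with an unadjusted p of 0.016, 1.38 without ltm 4 leaves B and 0.67 without ltm 4 leaves A. In WT it had 90.6 and 135.9 at 6 leaves, against 81.3 and 64.7 at 4 leaves.

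The other members of this list differed less. LS, a GRAS gene needed for side shoots, had 494.0 and 567.8 in ltm 6 leaves, against 434.5 and 373.6 in ltm 4 leaves (0.39 ± 0.19). GOB, a NAC gene that separates organs, had 4951 and 5086 in ltm 6 leaves, against 4757 and 4151 in ltm 4 leaves. BRC1a overlapped between the stages. The boundary median was 0.18 without ltm 4 leaves B.

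Genes linked to plant age and to flower repression gave few differences. Of the 5 matched AP2-like genes, AP2c (Solyc02g093150) had 2055 and 2326 in ltm 6 leaves, against 1676 and 1621 in ltm 4 leaves, with a stage change of 0.41 ± 0.17 and an unadjusted p of 0.042. The other 4 lay between -0.22 and 0.22. Both matched SBP-box genes, CNR and SBP3, overlapped between the stages in the mutant. Of the 5 leaf development genes 4 had positive stage changes, all 5 lying between -0.17 and 0.09.

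**Figure D3:**
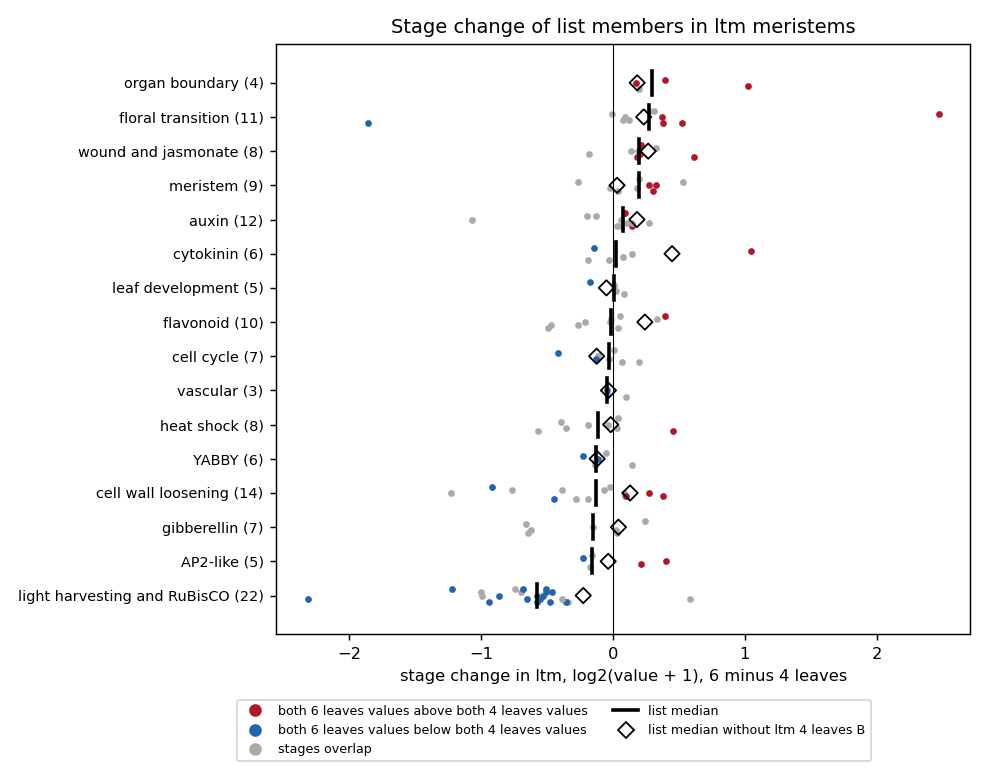
Stage change in ltm (6 minus 4 leaves, log2(value + 1)) of each tested member of 16 gene lists with at least 3 members, sorted by the list median (black bar) and coloured by whether both 6 leaves values lie above (red) or below (blue) both 4 leaves values. Diamonds give the median without ltm 4 leaves B, which for light harvesting moves to -0.22 and for the meristem list to 0.03.

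Genes of the photosynthetic apparatus stood lower at 6 leaves. Of the 22 matched genes for light-harvesting chlorophyll a/b binding proteins (CAB), the small RuBisCO subunit and a photosystem protein, all passed the filter, and 21 had negative stage changes in ltm, against 9254 of all 18654 genes. Their median was -0.58, against 0.00 over all genes. The values of 15 lay apart downwards, against 14.1% of all genes, 10 were below an unadjusted p of 0.05, against 1.92% of all genes, and 0 passed adjustment. In WT 21 of the 22 stage changes were negative as well, with a median of -0.31.

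The extent rested on ltm 4 leaves B. The summed level of the 22 genes was 34100 and 35473 in ltm 6 leaves, against 39248 and 64418 in ltm 4 leaves, and it was 39608 and 37015 in WT 6 leaves, against 44650 and 51417 in WT 4 leaves. Both 4 leaves libraries exceeded both 6 leaves libraries in either genotype. Without ltm 4 leaves B the median was -0.22 with 16 of 22 negative, and without ltm 4 leaves A it was -1.0 with 21 of 22 negative. In bulk tissue, fewer cells of a type cannot be told apart from less RNA per cell, and the part that attached leaf tissue had in these values was not tested.

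CAB3c (Solyc03g005780) had the largest stage change of the list. It had 53.0 and 90.0 in ltm 6 leaves, against 181.7 and 662.7 in ltm 4 leaves. Even ltm 4 leaves A was over 2 times the higher 6 leaves value. The stage change was -2.31 ± 0.60, with an unadjusted p of 0.0047, and was -1.38 without ltm 4 leaves B. WT had 95.6 and 177.8 at 6 leaves, against 225.7 and 379.0 at 4 leaves.

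CAB6A (Solyc05g056050) had 55.8 and 68.0 in ltm 6 leaves, against 81.2 and 256.8 in ltm 4 leaves, with a stage change of -1.22 ± 0.53 that became -0.39 without ltm 4 leaves B. CAB3b had 234.7 and 275.9 in ltm 6 leaves, against 339.1 and 707.0 in ltm 4 leaves (-0.94 ± 0.36, or -0.41 without ltm 4 leaves B). CAB10B had 1050 and 1440 in ltm 6 leaves, against 1573 and 2384 in ltm 4 leaves (-0.65 ± 0.24, or -0.35 without ltm 4 leaves B). CAB9 had 2923 and 3584 in ltm 6 leaves, against 4021 and 5809 in ltm 4 leaves (-0.58 ± 0.20, or -0.31 without ltm 4 leaves B). In each of these the B library at 4 leaves was well above the A library.

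CAB13 differed in that both 4 leaves libraries were alike. It had 3284 and 2953 in ltm 6 leaves, against 4469 and 4371 in ltm 4 leaves, a stage change of -0.51 with and -0.52 without ltm 4 leaves B. PSBO, of the oxygen-evolving complex, had 2464 and 2678 in ltm 6 leaves, against 3098 and 4032 in ltm 4 leaves. CAB1b was the only member with a positive stage change (0.58, or 0.07 without ltm 4 leaves A). The CAB1 and CAB3 genes lie in clusters of near-identical copies, and CAB3a and CAB3b share 1 RefSeq record, so the division of reads among them is uncertain.

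**Figure D4:**
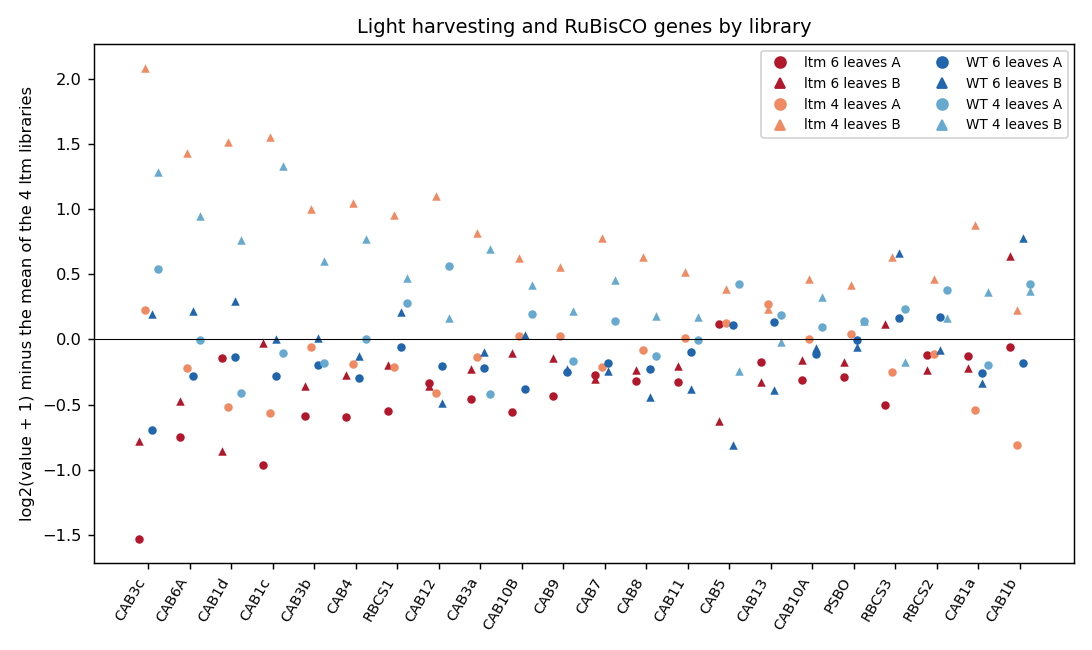
Level of 22 light harvesting and RuBisCO genes in each library, as log2(value + 1) minus the mean of the 4 ltm libraries, with genes sorted by their stage change in ltm. The ltm 4 leaves B triangles lie highest in most genes, with CAB3c at the left end and CAB1b at the right end.

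Other markers moved less. The summed level of 3 vascular genes was 1382 and 1570 in ltm 6 leaves, against 1423 and 1462 in ltm 4 leaves, and that of 2 epidermal genes, CD2 and CER6, was 3570 and 3920 against 4616 and 3217. Of the epidermis and trichome identifiers without a matched name, Solyc10g083140 was separated downwards, but it entered only through its 4 leaves values and had to be lower. Of the YABBY genes, which mark the underside of young leaves, 5 of 6 had negative stage changes in ltm, with a median of -0.12 that was -0.068 without ltm 6 leaves A, and 2 were apart downwards, against 14.1% of all genes. Without ltm 4 leaves B 4 of 6 were negative. The 8 tested heat shock genes had a median of -0.11 that was -0.23 without ltm 4 leaves A, while leaving out ltm 6 leaves A gave 0.054. HSC80, a chaperone gene, had 137210 and 164849 in ltm 6 leaves, against 130410 and 92275 in ltm 4 leaves.

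Among wound and jasmonate genes, 7 of 8 had positive stage changes, against 50.4% of all genes, with a median of 0.20, and 4 were apart upwards, against 13.2%. Without ltm 4 leaves A 5 of 8 were positive with a median of 0.13, and without ltm 4 leaves B 7 of 8 with a median of 0.27. LOXD (Solyc03g122340), a lipoxygenase of jasmonate synthesis, had 1488 and 1509 in ltm 6 leaves, against 895.4 and 1071 in ltm 4 leaves. The stages were apart, and the stage change was 0.61 ± 0.15 with an unadjusted p of 0.0042. It was 0.74 without ltm 4 leaves B and 0.48 without ltm 4 leaves A. WT gave nearly the same stage change, 0.61, with 1706 and 1837 at 6 leaves against 1004 and 1346 at 4 leaves. JAZ3, AOC and MYC2 were the other members apart upwards, with stage changes between 0.19 and 0.21.

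Among hormone genes, 1 of the 6 tested cytokinin genes was separated upwards, against 0.381% of all genes. CKX5 (Solyc04g016430), a cytokinin-degrading oxidase, had 38.8 and 32.0 in ltm 6 leaves, against 14.2 and 19.1 in ltm 4 leaves. It was separated, with a stage change of 1.05 ± 0.41 and an unadjusted p of 0.033. The stage change was 1.25 without ltm 4 leaves B and 0.85 without ltm 4 leaves A. The median of the 6 tested cytokinin genes was 0.02, which was 0.45 without ltm 4 leaves B and -0.36 without ltm 4 leaves A. In WT, CKX5 had 53.8 and 68.0 at 6 leaves, against 19.2 and 40.7 at 4 leaves. Of the 12 tested auxin genes 9 had positive stage changes, against 50.4% of all genes, with a median of 0.07. None of the 12 was separated, against 0.381% of all genes upwards and 0.616% downwards. Of the auxin identifiers without a matched name, Solyc06g066020 and Solyc06g008580 were separated upwards and Solyc09g083290 downwards. Without ltm 4 leaves A 5 of 12 were positive with a median of -0.048, and without ltm 4 leaves B 10 of 12 with a median of 0.18. Of the 7 tested gibberellin genes 0 were apart, against 13.2% of all genes upwards and 14.1% downwards. GA2ox5, a gibberellin-inactivating oxidase, had 94.6 and 177.9 in ltm 6 leaves, against 443.7 and 46.3 in ltm 4 leaves, a spread of almost 10 times within the earlier stage.

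In the cell cycle list CYCB1.2 (Solyc10g080950), a mitotic cyclin, had 2010 and 2530 in ltm 6 leaves, against 2914 and 3095 in ltm 4 leaves. The stages were apart, and the stage change was -0.41 ± 0.14 with an unadjusted p of 0.016. It was -0.37 without ltm 4 leaves B, and leaving out ltm 6 leaves A gave -0.25. The other 6 genes lay between -0.13 and 0.20. Among the 14 tested cell wall loosening genes, EXP12 (Solyc05g007830), an expansin, had 6961 and 6976 in ltm 6 leaves, against 4890 and 5835 in ltm 4 leaves (0.38 ± 0.15, unadjusted p of 0.036). The 10 tested flavonoid genes had a median of -0.02, which was 0.24 without ltm 4 leaves B and -0.45 without ltm 4 leaves A. The 1 matched clock gene, CO3, overlapped between the stages. Of the clock identifiers without a matched name, Solyc10g005030 was apart downwards (-0.80 ± 0.26).

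Further list identifiers without a matched name are given because their stages were separated in ltm or their unadjusted p was below 0.05. The stage changes were 1.27 for Solyc06g066020 and 1.14 for Solyc06g008580, both of the auxin list, and 0.35 for Solyc05g007870 of the organ boundary list. They were -0.80 for Solyc10g005030 of the clock list and -1.46 for Solyc09g083290 of the auxin list. Solyc10g083140, of the epidermis and trichome list, had -1.58, but entered only through its 4 leaves values and had to be lower. That of Solyc06g066020 was 0.68 without ltm 4 leaves A. Without ltm 4 leaves B, that of Solyc05g007870 was 0.21 and that of Solyc09g083290 -0.97.

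Set beside WT, the separated genes of the mutant mostly leaned the same way. Of the 71 genes higher at 6 leaves in ltm, 62 (87.3%) also had a positive stage change in WT, against 49.7% of all genes, and 37 (52.1%) were apart upwards in WT, against 21.0% of all genes. Of the 115 lower genes, 79 (68.7%) had a negative stage change in WT, against 50.3%, and 38 (33.0%) were apart downwards, against 21.1%. The median stage change of the 71 was 1.14 in ltm and 0.59 in WT, and that of the 115 was -1.25 in ltm and -0.27 in WT. The separated genes were chosen for their size in ltm, so the smaller WT medians give no test of a genotype difference.

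The 2 stage comparisons share no library, but both hold a 4 leaves B library that stood apart. Across the 18654 genes, the 2 stage changes had r = 0.42 (rho = 0.46). The value was 0.16 (rho = 0.12) without both 4 leaves B libraries and 0.65 (rho = 0.66) without both 4 leaves A libraries. When the ltm A libraries were set beside the WT B libraries it was -0.13 (rho = -0.17), and with the ltm B and WT A libraries it was 0.26 (rho = 0.34).

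**Figure D5:**
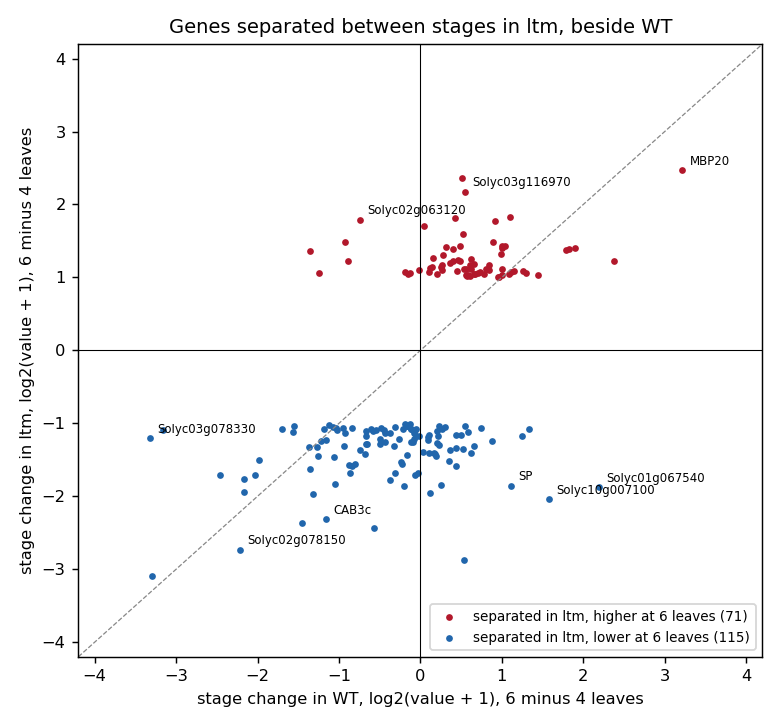
Stage change in ltm (y axis) and in WT (x axis), both 6 minus 4 leaves on the log2(value + 1) scale, of the 71 (red) and 115 (blue) genes separated in ltm; the dashed line marks equal values. MBP20 lies at 2.47 in ltm and 3.22 in WT, and SP, Solyc01g067540 and Solyc10g007100 are negative in ltm and positive in WT. MBP20, Solyc01g067540 and Solyc10g007100 entered through 1 ltm stage only, which fixed their direction in ltm.

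The test of the difference between the stage changes called 0 of 18654 genes (0%) by limma, edgeR and DESeq2. Without adjustment, limma placed 134 genes (0.718%), edgeR 138 and DESeq2 65 below 0.05. Among genes with a matched name, MBP3 and FUL1 had an unadjusted p below 0.05 in this test. MBP3 (Solyc06g064840), a MADS-box gene of the clade that specifies ovules, had 77.6 and 91.0 in ltm 6 leaves, against 60.9 and 60.4 in ltm 4 leaves, and 66.7 and 65.7 in WT 6 leaves, against 146.2 and 124.2 in WT 4 leaves. Its stages were apart in both genotypes, upwards in ltm and downwards in WT. The difference was 1.48 ± 0.30, with an unadjusted p of 0.0011 and a stage change in ltm of 0.46 ± 0.21.

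Of genes without a name, Solyc10g007100 had 2.84 and 3.0 in ltm 6 leaves, against 16.2 and 14.1 in ltm 4 leaves. In WT it had 19.9 and 19.3 at 6 leaves, against 5.48 and 6.26 at 4 leaves. It entered only through its ltm 4 leaves values and had to be lower in ltm 6 leaves, so its difference is a description. Solyc03g078330 was lower at 6 leaves in both genotypes, with 21.8 and 25.0 in ltm 6 leaves against 34.5 and 87.6 in ltm 4 leaves, and 4.98 and 3.40 in WT 6 leaves against 55.7 and 44.9 in WT 4 leaves. The difference in its stage changes was 2.11 ± 0.67 (unadjusted p of 0.014), and its stage change in ltm was -1.21 over all libraries, -0.55 without ltm 4 leaves B and -1.87 without ltm 4 leaves A.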

How the data were processed

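RNA-seq of 8 libraries was analysed, grouped by sample titles; table columns were matched through the sample descriptions, and all were used. Per the submitters' processing notes, the tools included TopHat2 2.0.10, HTSeq 0.6.1p1 and DESeq2 1.6.3; a genome build was not given in the sources used here. Each deposited value is a signal, the count of a gene divided by its library's size factor (0.883 to 1.09). Of all values 100% were whole multiples of 1 read (tolerance 1e-06 of the read number), so reads were recovered. The library kit named in the labels' protocols does not mark strand, so a gene and an antisense partner cannot be told apart.

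Gene by gene, log2(value + 1) was modelled with limma 3.58.1 (R 4.3.3, trend) over the 8 libraries, 1 mean for each of 4 groups and 4 residual degrees of freedom. The 18654 genes that reached 10 in 2 or more ltm libraries were tested. Adjusted p-values follow Benjamini and Hochberg and were called below 0.05; fold changes of low genes are understated. edgeR 4.0.16 (quasi-likelihood) and DESeq2 1.42.0 on the recovered reads, other pseudocounts, scalings and filters, a replicate block and left-out libraries were alternatives. Unadjusted p-values are from limma unless another tool is named. The scripts were tested on simulated data. Intervals are exact binomial (Clopper-Pearson, 95%), with a floor of 3 reads over the 4 ltm libraries, and cover counting error only.

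Members and gene lists were chosen with earlier results of these data known. Symbols were paired with identifiers from general knowledge and kept where a RefSeq gene (assembly SLM_r2.1) of that name lay on the same chromosome in the same order: 182 of 281 pairs matched, 98 had no RefSeq name, and 1 was out of order and is given by identifier. Counts over lists use matched members. Named genes were those called by any tool, all floral transition genes, up to 5 per other list and, among separated or stage-by-genotype genes, those with the largest change or smallest p; TKN2, TKN4, WUS, CLV3, LS, GOB, CAB13, CAB1b, PSBO, HSC80, GA2ox5 and other members outside this rule were chosen after their values were seen. No sequence is shown.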

Additional observations from a re-analysis of the deposited data

Results flagged for a closer look

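For MBP3 and 3 genes without a name the stages did not overlap in either genotype and lay in opposite directions. The difference between the stage changes (ltm minus WT, log2(value + 1)) was 1.48 for MBP3, -3.63 for Solyc10g007100, -4.07 for Solyc01g067540 and 2.54 for Solyc02g063120. None passed adjustment in limma's test of the difference. Solyc01g067540 had 6.62 and 4.0 normalized reads in ltm 6 leaves, against 11.2 and 41.3 in ltm 4 leaves, and 21.9 and 41.9 in WT 6 leaves, against 5.48 and 6.26 in WT 4 leaves. Its stage change in ltm was -1.88 over all libraries and -0.98 without ltm 4 leaves B. Solyc02g063120 had 12.3 and 22 in ltm 6 leaves, against 4.06 and 4.03 in ltm 4 leaves, and 3.98 and 7.93 in WT 6 leaves, against 11.0 and 9.40 in WT 4 leaves. These 2 genes and Solyc10g007100 entered through 1 ltm stage only, which fixed their direction in ltm, so their differences are a description. Of the 18654 genes tested, 321 were apart in opposite directions in the 2 genotypes, 68 of them with an unadjusted p of the difference below 0.05. Over all genes, 13.2% were apart upwards and 14.1% downwards in ltm, and 21.0% and 21.1% in WT. An unadjusted p of the difference below 0.05 was found for 134 of all genes (0.718%).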

How the results depend on the processing

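limma and edgeR called 0 genes for the ltm stages, the WT stages and their difference under every alternative tried, and DESeq2 called 4 genes for ltm, 9 for WT and 0 for the difference. The 599 genes at an unadjusted p below 0.05 in ltm became 1020 with the letter as a replicate block, 1079 without both 4 leaves B libraries, and 323 (without ltm 6 leaves A) to 2461 (without ltm 4 leaves A) when 1 library was left out. The 71 higher and 115 lower separated genes became 35 and 60 with a pseudocount of 5, 277 and 529 with no filter, 346 and 156 without both 4 leaves B libraries, and 6 and 21 when every ratio had to reach 2-fold, a rule added after the data were seen. With 1 library left out they ranged from 71 to 346 higher and 115 to 588 lower. With 1 library left at an ltm stage the no-overlap rule is easier to meet, so those counts cannot be compared with 71 and 115. The floral transition median of 0.28 was 0.11 with no filter and 0.17 to 0.28 with 1 library left out. The ranges with 1 library left out were 0.032 to 0.40 for the meristem list, -1.0 to -0.22 for light harvesting, 0.18 to 0.41 for organ boundary and 0.13 to 0.28 for wound and jasmonate. Of 16 list medians, 6 kept their sign in every setting, and among the others auxin ranged from -0.048 to 0.18 and cytokinin from -0.36 to 0.45 with 1 ltm library left out. Of 44 tested named genes, 38 kept their direction in all settings run. Most of the 44 were apart in ltm, and a gene that is apart cannot change direction when 1 library is left out. The count of 38 is therefore no test of robustness. Leaving out 1 library gave -0.065 to 0.31 for BOP2, -0.018 to 0.20 for BOP3, -0.27 to 0.26 for FA, -0.12 to 0.74 for FUL1, -0.082 to 0.23 for FYFL and -0.092 to 0.64 for S, and without both 4 leaves B libraries FYFL was at -0.082 and S at -0.092. The causes were not tested. At this depth, no difference could be detected for genes with a handful of reads, such as AN, EJ2 and J2. The labels do not say that a letter pairs libraries. Across genes, deviations of A from the group mean correlated positively between all 6 pairs of groups, from 0.12 between the ltm stages to 0.53 between ltm and WT at 4 leaves, a hint from the data and not the design. In the ltm libraries alone a replicate block gave 0 calls and 406 genes at an unadjusted p below 0.05.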
